A study of Mus musculus with 24 samples.

Results

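The triple knockout (TKO) is a clone of B16-F10 mouse melanoma cells that lacks the related transcription factors MITF, TFEB and TFE3. It was compared with the parental cells it derives from, using the 3 libraries the labels give as TKO and the 3 given as parental, which are 6 of the 24 libraries of the series, and all 12010 genes of the deposited table. Both lines are B16F10-luc2, a melanoma line of the C57BL/6 mouse with a luciferase reporter, and both were grown in DMEM with 10% serum and 10% CO2. The TKO was made by editing Tfe3 and Tfeb in cells that already had a frameshift in Mitf. The study describes a faint, fast-running band with its antibody against MITF in those cells, so that a low level of a shortened protein may remain. The KO cells were isolated as clones, and any other difference between a clone and the parental population enters each value below. The labels do not say whether the 3 libraries of a line come from separate cultures, and p-values therefore measure only the spread between these libraries. The series also holds the single KOs and the double KOs (DKOs), of which the MITF KO and the MITF/TFEB DKO are used here as the nearest lines.

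MITF, TFEB and TFE3 belong to the MiT/TFE family of basic helix-loop-helix leucine zipper factors, which bind DNA as pairs at E-boxes such as CACGTG and CATGTG. MITF sets the identity of melanocytes and drives the genes that make pigment in the melanosome, an organelle related to the lysosome. TFEB and TFE3 are kept in the cytoplasm by the kinase complex mTORC1 while nutrients are plentiful, and enter the nucleus on starvation, where they drive lysosomal and autophagy genes. The remaining member of the family, Tfec, is not among the 12010 genes. The TKO asks what these melanoma cells express when none of the factors is left.

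Guide sites for Tfe3 and Tfeb are shown because the edits define the line. They are the guide sequences in the design text deposited with the series, found in mm39, with the PAM of the genome in capitals. The paper gives the same guide for Tfeb but a different one for Tfe3, so that the Tfe3 site printed here may not be the one that was cut in this line.
Tfe3 guide site, chrX:7631806-7631825, minus strand: cgtagaagctgtcaggatcgAGG
Tfeb guide site, chr17:48097370-48097389, plus strand: tggacacgtactgtccacctCGG
The Tfe3 site lies in coding exon 2 of the 10 exons of ENSMUST00000077680.11, with 179 of 1716 coding bases (10.4%) before the position at which this guide would cut. The Tfeb site lies in coding exon 3 of the 9 exons of ENSMUST00000086932.11, with 394 of 1425 coding bases (27.6%) before the cut. No guide for Mitf is given in the sources used here.

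Levels came from 3′ end libraries with 22707913 to 23635288 reads on genes in the parental cells and 20071912 to 26667877 in the TKO. Levels are given as CPM, the reads of a gene scaled to library size with the TMM factors of the deposited table, and differences as the log2 fold change of CPM + 1, a scale on which the change of genes with few reads is understated. The 3 factor genes were read first. Mitf (ENSMUSG00000035158, chromosome 6) went from 763, 768 and 797 CPM in parental libraries to 349.7, 326 and 329 CPM in TKO libraries, a fall of 1.21 (SE 0.094, limma with Benjamini-Hochberg adjustment, adjusted p = 1.9e-10). Tfeb (ENSMUSG00000023990, chromosome 17) went from 8.20, 7.87 and 10.3 CPM to 3.10, 2.81 and 3.40 CPM (log2 fold change -1.25, adjusted p = 3.2e-06). Tfe3 (ENSMUSG00000000134, chromosome X) went from 35.4, 38.4 and 37.4 CPM to 21.7, 19.9 and 17.6 CPM (log2 fold change -0.88, adjusted p = 5.3e-05). No TKO library overlapped a parental library for any of the 3 genes, and RNA of each was still present. A frameshift can leave the RNA in place, so that these levels do not measure the loss of the proteins. In the nearest lines, Mitf stood at 0.85 in the MITF KO and at -0.42 in the MITF/TFEB DKO relative to parental cells (log2), and its level in the TKO was at -2.06 against the MITF KO (adjusted p = 2.9e-14) and at -0.79 against the MITF/TFEB DKO (adjusted p = 1.5e-06). Tfe3 had a mean of 19.8 CPM in the TKO, higher than the means of the other lines without TFE3, which were 10.8 CPM in the TFE3 KO, 8.63 CPM in the MITF/TFE3 DKO and 11.3 CPM in the TFEB/TFE3 DKO. Relative to parental cells these lines stood at -1.71, -1.99 and -1.67 (log2), and their difference from the TKO was not tested. Tfeb had a mean of 3.10 CPM in the TKO, beside means of 2.88 CPM in the TFEB KO, 5.12 CPM in the TFEB/TFE3 DKO and 3.19 CPM in the MITF/TFEB DKO. Around Tfe3, the 100 neighbouring genes had a median change of 0.56 (log2), against 0.014 over all genes.

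A differentially expressed gene (DEG) was called at 2-fold or more with p below 0.05 before adjustment, as the study did. In the TKO, 994 of 12010 genes (8.28%) were upregulated and 770 (6.41%) downregulated. Of these, 992 and 770 had an adjusted p below 0.05, and in every one of them the TKO libraries lay wholly above or below the parental ones, as they did in 68.5% of all genes. Without the limit on fold, many more genes passed: 3396 genes (28.3%) were higher and 3356 (27.9%) lower at an adjusted p below 0.05. The median change was 1.43 (log2) in upregulated genes, which had a median of 5.96 CPM in the parental cells, and 1.36 in size in downregulated genes, which had a median of 27.9 CPM there. A change of 4 or more was seen in 27 upregulated and 39 downregulated genes. Some genes went from hardly any reads to many, or the reverse. Of the 107 genes with at most 3 reads in every parental library and more in the TKO, 71 were upregulated, and of the 113 genes with at most 3 reads in every TKO library and more in the parental cells, 55 were downregulated. In a bulk sample, fewer cells with a transcript and less of it in each cell cannot be told apart.

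**Figure D1:**
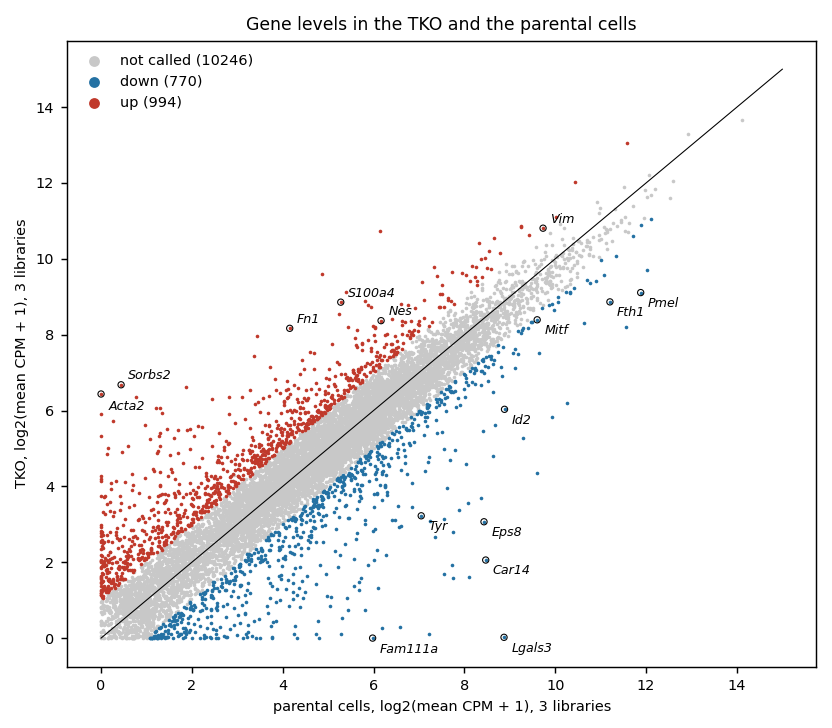
Mean level of each of the 12010 genes in the parental cells (x axis) and the TKO (y axis), both as log2(mean CPM + 1) over 3 libraries, with upregulated genes in red, downregulated genes in blue, genes not called in grey and the line of equal levels in black. The 994 upregulated genes reach down to the left edge, where Acta2 had 0 reads in the parental cells, and the 770 downregulated genes include Lgals3 and Fam111a at the lower edge.

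The largest rises led from near silence to clear expression. Acta2, the smooth muscle actin, had 0 reads in every parental library and 92.1, 94.0 and 70.6 CPM in the TKO, at least 641-fold higher when the parental cells are set at a floor of 3 reads per library. Its neighbours on chromosome 19 had a median of -0.68, and its 3′ end overlaps Stambpl1 on the other strand, which is not among the genes of the table. Gal3st2, a sulfotransferase with close copies in the mouse genome that may share its reads, had 0 parental reads and 60.3, 63.4 and 52.9 CPM in the TKO (at least 441-fold higher). Tslrn1 also had 0 parental reads, and 40.7, 39.1 and 38 CPM in the TKO (at least 294-fold higher). Sorbs2, an adaptor of actin stress fibres, went from 0.259, 0.455 and 0.360 CPM to 99.6, 102 and 102.5 CPM, a log2 fold change of 6.24 (adjusted p = 2.0e-19). For all of these the libraries of a line lay close together, and a lack of overlap with the other line was a condition of the choice. Cfap100, a gene of motile cilia, rose by 5.58 and Dbh, which makes noradrenaline from dopamine, by 5.50. Cebpd, a transcription factor of the C/EBP family, rose by 4.87, Casq2, which stores calcium in the heart's sarcoplasmic reticulum, by 4.79, Prelp, a matrix proteoglycan, by 4.77 and Zfp536, a zinc finger protein, by 4.77. The largest adjusted p of these 6 was 1.4e-12, for Prelp, whose neighbours on chromosome 1 had a median of 0.58. All of these rises were also present in the MITF/TFEB DKO, at 4.37 (Tslrn1) to 7.34 (Acta2) relative to parental cells. That line had means of 164 CPM of Acta2, 110 CPM of Sorbs2 and 60.4 CPM of Gal3st2. The TKO was at -0.92 against it for Acta2 (limma adjusted p = 6.2e-04), at -1.25 for Dbh (2.6e-05) and at 0.97 for Tslrn1 (2.6e-06).

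Among the largest falls, 6 of 10 belong to the interferon response described below, and Mndal, of the interferon-inducible p200 family, is a relative of those genes. The others are Lgals3, Car14 and Fam111a. Lgals3, which encodes galectin-3, had 466, 475 and 462 CPM in the parental cells and 0, 0 and 0.043 CPM in the TKO, where the last value is 1 read. Car14, a membrane-bound carbonic anhydrase, had 364, 368 and 328 CPM in the parental cells and 2.84, 3.0 and 3.66 CPM in the TKO, a log2 fold change of -6.41 (SE 0.12, adjusted p = 8.0e-22). Fam111a, a protease that restricts viruses, had 57.6, 63.3 and 65.4 CPM in the parental cells and 0 reads in all TKO libraries, at least 489-fold lower, where its neighbours on chromosome 19 had a median of -0.57. The MITF KO still had a mean of 254 CPM of Lgals3, 360.2 CPM of Car14 and 49.96 CPM of Fam111a, whereas the MITF/TFEB DKO had 0.190, 13.5 and 1.11 CPM. The TKO was lower still than the MITF/TFEB DKO for Car14, at -1.79 (adjusted p = 5.1e-11), and for Fam111a, at -1.05 (adjusted p = 3.6e-06).

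**Figure D2:**
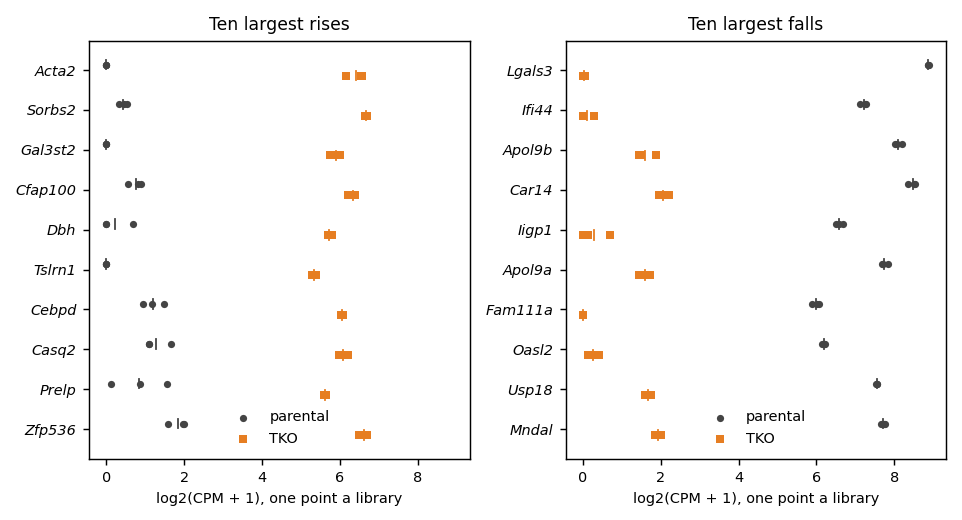
Level of the 10 genes with the largest rise (left) and the 10 with the largest fall (right) in each library, as log2(CPM + 1) on the x axis, with parental libraries as grey circles, TKO libraries as orange squares and short vertical lines at the mean of each line. The 20 genes were chosen among those whose TKO libraries do not overlap the parental ones, so that the gap is a condition of the choice. Acta2, Gal3st2 and Tslrn1 sit at 0 in all parental libraries.

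Pigment genes fell as a group. Of 35 genes of the melanosome, 12 were downregulated and none upregulated, and at an adjusted p below 0.05, 24 were lower and 7 higher. Over all genes, 6.41% were downregulated and 8.28% upregulated, and 27.9% were lower and 28.3% higher. The counts of each list below are to be read beside these shares. The median was -0.62 (log2), against 0.014 over all genes. Tyr, the tyrosinase that carries out the first step of melanin synthesis, had 127, 133 and 134 CPM in the parental cells and 8.78, 7.66 and 8.60 CPM in the TKO (log2 fold change -3.83, SE 0.15, adjusted p = 4.0e-16). Tyrp1, a further melanin enzyme, had 2698, 2506 and 2509 CPM against 1074, 1063 and 1099 CPM (log2 fold change -1.25, adjusted p = 2.5e-10). Dct, the third enzyme of the pathway, had 18263, 17963 and 17027 CPM against 12750.0, 12715 and 13662 CPM, a difference of -0.44 (adjusted p = 0.0018) that is under 2-fold. With quantile normalization this difference was 0, but that method gives a gene of the same rank in every library the same value. The 0 therefore cannot show whether the fall of Dct depends on scaling. The 3 enzymes thus fell by very different amounts, with no overlap between the lines for any. Pmel, which forms the fibrils of the melanosome, had 3634, 3588 and 4092 CPM against 527, 544 and 583 CPM (log2 fold change -2.77, adjusted p = 1.0e-15). The 3′ end of Pmel overlaps Dgka on the other strand, which was upregulated by 2.40, and whether the counting used the strand is not given in the sources used here.

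Of the other melanosome genes that were called, 2 that carry ions are given by library. Slc45a2, which keeps the melanosome at a neutral pH, had 433, 417 and 378 CPM in the parental cells and 51.9, 42.4 and 50.2 CPM in the TKO (log2 fold change -3.06, adjusted p = 1.9e-18). Trpm1, a cation channel of melanocytes, went from 18.2, 17.5 and 23.3 CPM to 0.947, 1.38 and 2.15 CPM (log2 fold change -3.07, adjusted p = 5.0e-12). Slc24a5 fell by 1.51, and the remaining called genes were Rab27a (-2.56), which moves melanosomes along actin, Gpr143 (-2.42), Mlana (-2.12), Slc24a4 (-1.55), Mc1r (-1.55), the receptor of melanocortin, and Lyst (-1.41). Mlana lies on chromosome 19, where its neighbours had a median of -0.66. Against the MITF KO, 16 of the 35 genes were lower and 1 higher in the TKO at 2-fold and an adjusted p below 0.05, where 4.54% of all genes were lower and 6.25% higher. Against the MITF/TFEB DKO, 1 was lower and none higher, where 1.97% and 0.308% of all genes were. Tyr was at -3.59 (log2) against the MITF KO (adjusted p = 3.1e-15) and at -0.56 against the MITF/TFEB DKO (adjusted p = 0.011), and Trpm1 was at -1.99 against the MITF/TFEB DKO (adjusted p = 6.0e-08).

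Stretches of promoter are printed next, because the E-boxes they hold are the letters that the lost factors are known to bind. They were read from RefSeq promoters, which run from 250 bases before to 50 bases after a gene's start, and found in mm39 by exact match. Capitals mark CACGTG and the 8-base forms TCACGTGA and TCATGTGA, the latter also as its reverse complement TCACATGA, in called melanosome, lysosome and folliculin genes with the largest change. In Tyr and Tyrp1 they mark CATGTG, the core of the M-box known from pigment genes.
Tyr, chr7:87142721-87142771, minus strand: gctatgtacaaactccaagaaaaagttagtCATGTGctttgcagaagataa
Tyrp1, chr4:80752374-80752439, plus strand: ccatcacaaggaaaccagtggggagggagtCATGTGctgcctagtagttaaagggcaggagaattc
Trpm1, chr7:63834957-63835013, plus strand: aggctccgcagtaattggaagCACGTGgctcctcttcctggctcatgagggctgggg
Rab27a, chr9:72971180-72971219, plus strand: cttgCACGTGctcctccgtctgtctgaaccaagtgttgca
Slc24a4, chr12:102094863-102094928, plus strand: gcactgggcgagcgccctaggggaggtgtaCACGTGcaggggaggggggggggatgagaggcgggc
Slc24a5, chr2:124910003-124910046, plus strand: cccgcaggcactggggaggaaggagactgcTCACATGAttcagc
Gla, chrX:133501913-133502004, minus strand: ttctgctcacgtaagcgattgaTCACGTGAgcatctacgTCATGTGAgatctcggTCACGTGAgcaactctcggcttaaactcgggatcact
Ctsf, chr19:4905084-4905149, plus strand: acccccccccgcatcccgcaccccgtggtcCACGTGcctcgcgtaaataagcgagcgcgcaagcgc
The stretch of Gla, the alpha-galactosidase of the lysosome, holds 3 of the 8-base forms. Gla was downregulated, from 14.8, 13.6 and 18.7 CPM to 3.83, 3.85 and 2.71 CPM (log2 fold change -1.90, adjusted p = 8.7e-10), and its 3′ end overlaps Rpl36a on the other strand. Ctsf, the cathepsin F gene, was upregulated from 0.690, 0.909 and 0.764 CPM to 4.52, 3.90 and 4.90 CPM (log2 fold change 1.6, adjusted p = 8.5e-10). Called genes with CACGTG were thus found in both directions.

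The share of promoters with such letters was read over all genes, as a description with no test. Of 12010 genes, 9647 had a RefSeq promoter (GRCm38.p6), among them 785 upregulated and 610 downregulated genes. CACGTG stood in 12.2% of upregulated, 11.8% of downregulated and 12% of all measured genes. CATGTG or its reverse CACATG stood in 10.6%, 13% and 10.0%. The longer form TCACGTGA, which contains CACGTG, stood in 2.04%, 1.97% and 2.30%. TCATGTGA or its reverse TCACATGA, which contain CATGTG or CACATG, stood in 2 upregulated genes (0.255%), 17 downregulated genes (2.79%) and 96 of all measured genes (0.995%). Over all 32851 promoters of the RefSeq table, these 4 motifs stood in 7.15%, 14.2%, 0.974% and 0.986%. The share in upregulated genes and that in downregulated genes lay furthest apart, as a ratio, for TCATGTGA. The 96 genes that hold it had a median change of -0.17 (log2).

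The 17 downregulated genes with TCATGTGA were followed up by name after this count was seen. Those with the largest fall outside the lists are printed as above.
Hpgds, chr6:65121758-65121825, minus strand: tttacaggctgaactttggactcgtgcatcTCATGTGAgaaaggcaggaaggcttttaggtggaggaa
Tspan10, chr11:120333405-120333456, plus strand: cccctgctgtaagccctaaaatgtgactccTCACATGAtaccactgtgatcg
Hoxa11, chr6:52222815-52222882, minus strand: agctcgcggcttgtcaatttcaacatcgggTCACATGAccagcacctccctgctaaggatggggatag
Chn2, chr6:54241593-54241636, plus strand: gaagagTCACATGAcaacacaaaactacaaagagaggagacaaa
Hpgds, a prostaglandin D synthase, fell from 42.1 ± 2.53 CPM to 0.671 ± 0.175 CPM (SD, n = 3; log2 fold change -4.69, limma adjusted p = 1.2e-19). Tspan10, a tetraspanin expressed in pigment cells, fell from 271 ± 4.81 CPM to 10.7 ± 0.552 CPM (SD, n = 3; log2 fold change -4.54, limma adjusted p = 1.1e-19). Hoxa11 fell by 4.15 and Chn2 by 1.96. The others include Gla and Slc24a5, Clcn5 (-1.08), the muscle ubiquitin ligase Trim63 (-1.88) and the growth factor Vegfb (-1.12). They also include Dpp7 (-1.33) and Grn (-1.12), lysosomal genes that are not in the lysosomal lists counted below. Relative to parental cells, Hpgds stood at 0.42 and Tspan10 at -0.41 (log2) in the MITF KO, but at -3.67 and -3.39 in the MITF/TFEB DKO. The 2 upregulated genes with the motif were Slc22a18 (2.68) and a predicted gene.

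Most of the listed lysosomal genes, the classical targets of TFEB and TFE3, changed by less than 2-fold when all 3 factors were lost. Of 49 lysosomal hydrolases and their activators, 1 was upregulated and 2 were downregulated, with 12 higher and 12 lower at an adjusted p below 0.05 and a median of 0.04. Beside Ctsf and Gla, Scpep1, a serine carboxypeptidase, was called (366, 371 and 321 CPM against 178, 168 and 166 CPM, log2 fold change -1.04). Ctsd, the main aspartic protease of the lysosome, had 623, 652 and 579.5 CPM against 611, 567 and 593 CPM, where the libraries of the lines overlapped (adjusted p = 0.66). Relative to parental cells, Ctsd stood at 0.71 in the MITF KO. The TKO was at -0.78 against that line (limma adjusted p = 8.1e-06) and at -0.46 against the MITF/TFEB DKO (limma adjusted p = 0.0089). Ctsb had 224, 220.1 and 233 CPM against 205, 213 and 234 CPM (adjusted p = 0.64), and its 3′ end overlaps Fdft1 on the other strand, which was upregulated. Hexa, a subunit of beta-hexosaminidase, was lower, at -0.77 (240.4, 261 and 254 CPM against 139, 149 and 153 CPM, adjusted p = 2.7e-07).

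Of 43 genes of the lysosomal membrane and the V-ATPase, the pump that acidifies the lysosome, 2 were upregulated (4.65%) and 3 downregulated (6.98%). Over all genes, 8.28% and 6.41% were. At an adjusted p below 0.05, 15 were higher and 14 lower, where 28.3% and 27.9% of all genes were, and the median was 0.12. Subunits of the same pump differed in direction. Atp6v1d had 451, 469 and 419 CPM against 142, 143 and 137 CPM (log2 fold change -1.65, adjusted p = 2.8e-12), where its neighbours on chromosome 12 had a median of -0.39. Atp6v0d1 was lower, at -0.55 (adjusted p = 8.6e-06), whereas Atp6v1h stood at 0.45 (adjusted p = 0.015), with a neighbour median of 0.42. Lamp1, the abundant glycoprotein of the lysosomal membrane, had 454, 451 and 407.5 CPM against 655, 635 and 669 CPM (log2 fold change 0.58, adjusted p = 2.0e-06), and its neighbours on chromosome 8 had a median of 0.57. Mcoln1, the calcium channel of the lysosome, had 5.61, 6.91 and 7.33 CPM against 7.10, 5.94 and 8.64 CPM, which overlap (adjusted p = 0.62). The other called genes were Cln3 (-1.36), Laptm4b (-1.04), Sidt2 (1.17) and Abca2 (1.12). Against parental cells, the lysosomal lists thus had called genes in both directions and medians near that of all genes. In the MITF KO, the medians of the hydrolase and the membrane list were 0.28 and 0.36. The TKO had median differences from the MITF KO of -0.19 and -0.23, where all genes had 0.026. Their promoters held TCACGTGA in 5 of 39 hydrolase genes (12.8%) and 9 of 33 membrane and V-ATPase genes (27.3%), and the genes with it had medians of -0.32 and 0.06.

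Most of the listed autophagy genes and regulators of mTORC1 likewise changed by less than 2-fold. Of 52 autophagy genes, 1 was upregulated (1.92%) and 2 were downregulated (3.85%), where 8.28% and 6.41% of all genes were (median -0.01). At an adjusted p below 0.05, 14 were higher and 16 lower, where 28.3% and 27.9% of all genes were. Tecpr1, which tethers autophagosomes to lysosomes, had 468, 446 and 447 CPM against 122, 115 and 122 CPM, a fall of 1.91 (SE 0.077, adjusted p = 1.1e-15). Optn, a cargo receptor, fell by 1.21 (adjusted p = 7.5e-07), and Ulk2, a kinase that starts autophagy, rose from 17.9, 15.1 and 14.5 CPM to 51.7, 50.2 and 47.9 CPM (log2 fold change 1.6, adjusted p = 7.3e-12). Sqstm1, which encodes the cargo receptor p62, was lower, at -0.72 (adjusted p = 2.9e-07), as was Map1lc3b, at -0.44 (adjusted p = 5.2e-04), and Gabarapl1 stood at -0.23 (adjusted p = 0.075). Of 38 genes around folliculin, the Rag GTPases and mTORC1, 1 was called in each direction (median -0.04). Rragd, the Rag GTPase long known as a target of the family, had 17.4, 18.3 and 24.05 CPM against 8.78, 7.04 and 9.20 CPM, a fall of 1.16 (SE 0.16, adjusted p = 2.4e-06), and was at -0.78 against the MITF/TFEB DKO (adjusted p = 0.0020). Ddit4, an inhibitor of mTORC1 induced by stress, rose by 1.09 (63, 57.4 and 46.8 CPM against 122, 118 and 117 CPM). Flcn (adjusted p = 0.23) and Rragc (adjusted p = 0.57) did not pass, and Fnip2 stood at -0.53 (adjusted p = 0.0053).

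**Figure D3:**
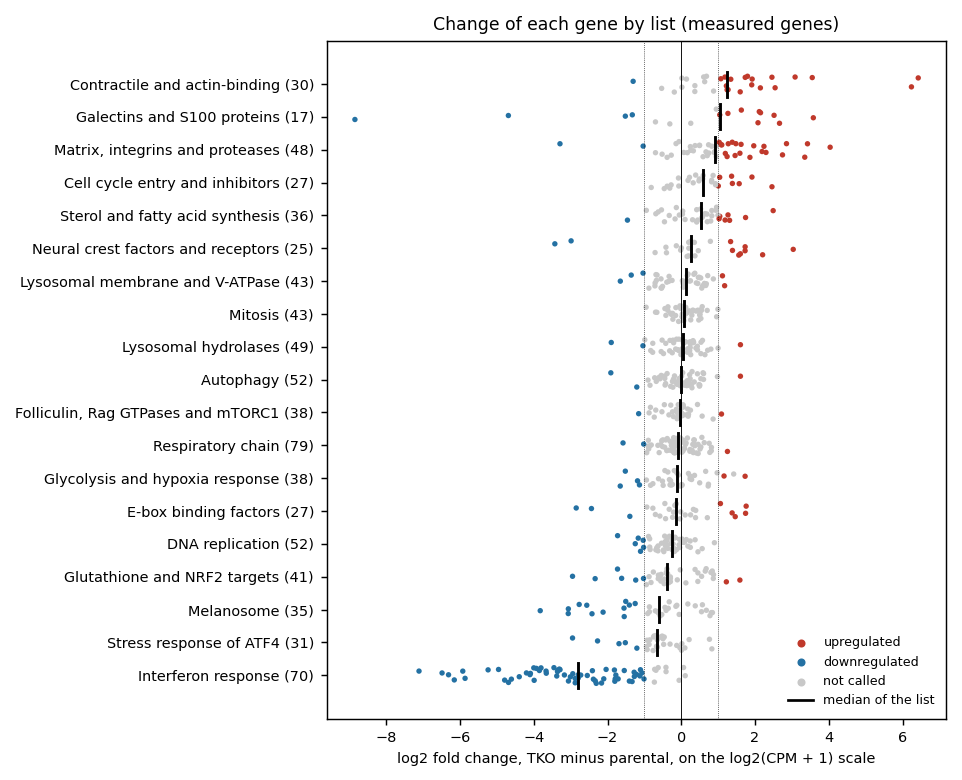
Log2 fold change of every measured gene of 19 gene lists, TKO minus parental, on the log2(CPM + 1) scale (x axis, 1 point a gene, jittered within its list, number of measured genes in parentheses), with called genes in red and blue, the 2-fold limits as dotted lines and the median of each list as a black bar. The interferon response has the lowest median (-2.79) and contractile genes the highest (1.23), and the lysosomal and autophagy lists sit near 0.

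The interferon response fell furthest. Interferon-stimulated genes are induced by signalling from interferon receptors and make a cell resistant to viruses. The parental cells expressed them without added interferon. Of 70 measured genes, 61 were downregulated and none upregulated, 66 were lower and none higher at an adjusted p below 0.05, and the median was -2.79. Ifi44 had 153, 138 and 151 CPM in the parental cells and 0.219, 0 and 0 CPM in the TKO (log2 fold change -7.11, SE 0.11, adjusted p = 1.9e-23). Isg15, which encodes a ubiquitin-like protein, had 528, 553 and 804 CPM against 35.9, 39.7 and 37.3 CPM (log2 fold change -4.0, adjusted p = 6.6e-12). Usp18, the protease that removes ISG15, had 186.5, 186 and 184 CPM against 2.33, 2.0 and 2.28 CPM (log2 fold change -5.86, adjusted p = 4.2e-21). The lines were apart by many times the spread of their libraries in each case. Ifit1, which binds foreign RNA, fell by 3.81 (380, 357.5 and 440 CPM against 27, 27.7 and 26.4 CPM, adjusted p = 3.4e-17), beside a neighbour median of -0.67. Oasl2 fell by 5.93 and Iigp1, an interferon-inducible GTPase, by 6.31. Apol9a fell by 6.16 and Apol9b by 6.49, though these genes, both on chromosome 15, are near-identical and may share reads. Irf7, a transcription factor of the pathway, had 1.51, 1.55 and 1.93 CPM in the parental cells against 0 reads in the TKO, at least 13.1-fold lower. The genes that were not called included Irf1 (-0.42), Tap2 (0.11), H2-D1 (-0.41) and Gbp2 (0.06).

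The interferon genes also differed between the TKO and its nearest lines. Against the MITF/TFEB DKO, in which TFE3 is left, 64 of the 70 genes were lower in the TKO by 2-fold or more at an adjusted p below 0.05 and none higher, and these make up 64 of the 237 genes (1.97% of all) that were lower. The median difference was -3.09. Against the MITF KO, 33 of the 70 genes were higher in the TKO and none lower, with a median difference of 0.92. Against the parental cells, the MITF KO had a list median of -4.04, the MITF/TFEB DKO of 0.32 and the MITF/TFE3 DKO of -0.20, and it lay between -0.90 and -0.58 in the lines that keep MITF. Usp18 was at -6.42 against the MITF/TFEB DKO (adjusted p = 1.1e-21) and 0.94 above the MITF KO (adjusted p = 1.0e-06). Cxcl10, a chemokine induced by interferon, had 55.2, 58.5 and 64.7 CPM in the parental cells and 27.4, 25.1 and 26.4 CPM in the TKO, where it was 3.78 above the MITF KO (adjusted p = 1.0e-13) and at -2.09 against the MITF/TFEB DKO (adjusted p = 1.0e-08). Its 3′ end overlaps Art3 on the other strand, which was upregulated. The lines are single clones, so that the clone and the genotype cannot be told apart.

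**Figure D4:**
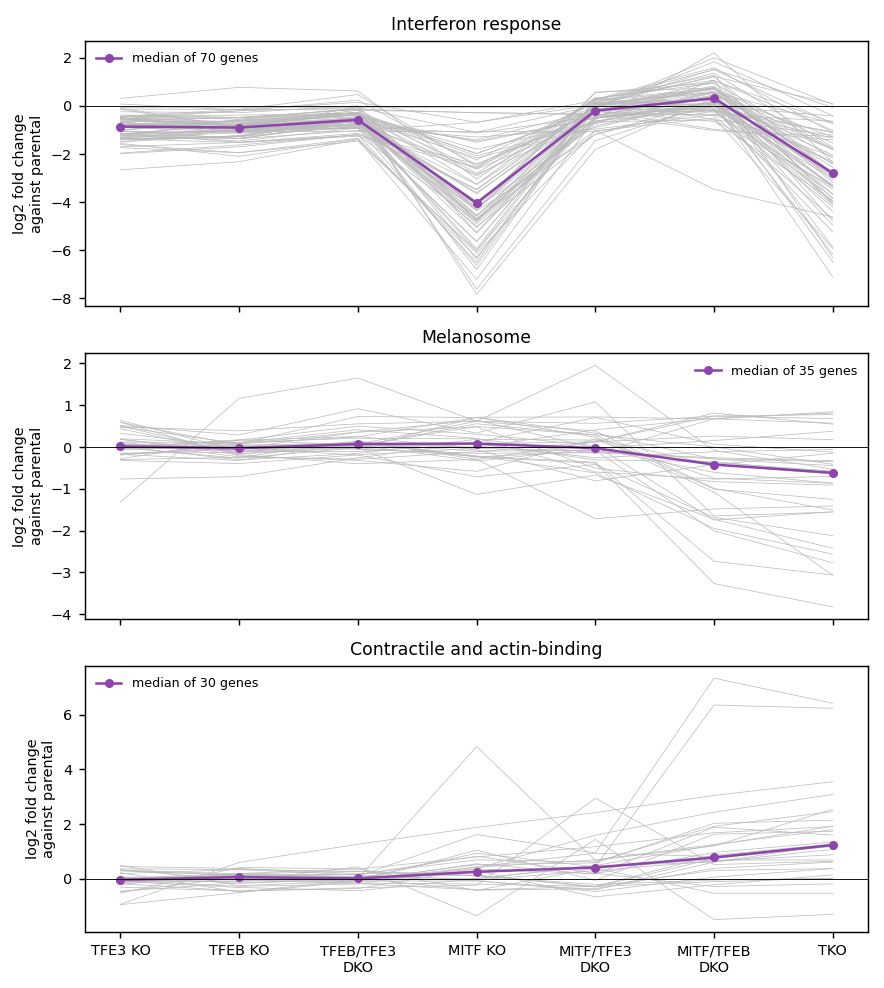
Log2 fold change against the parental cells (y axis) of each gene of the interferon, melanosome and contractile lists (grey lines) and their median (purple) in the 7 KO lines (x axis). The interferon median is -4.04 in the MITF KO, rises to 0.32 in the MITF/TFEB DKO and is -2.79 in the TKO, the melanosome median is lowest in the TKO (-0.62) and the contractile median highest there (1.23).

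Genes of contractile and actin-binding proteins rose. Of 30 measured, 18 were upregulated and 1 was downregulated, with 24 higher and 3 lower at an adjusted p below 0.05 and a median of 1.23. Beside Acta2 and Sorbs2, Cnn2, a calponin that binds actin, had 56.2, 48.5 and 61.2 CPM in the parental cells and 434, 500.1 and 492 CPM in the TKO (log2 fold change 3.08, SE 0.16, adjusted p = 1.1e-13). Lmod1, which starts actin filaments in smooth muscle, rose from 5.13, 7.32 and 5.71 CPM to 74.8, 84.8 and 83.6 CPM (log2 fold change 3.55, adjusted p = 4.1e-16), beside a neighbour median of 0.63 on chromosome 1. Tagln2 had 0 parental reads and 4.30, 5.99 and 4.34 CPM in the TKO, at least 36.5-fold higher, and was at -2.29 against the MITF KO (adjusted p = 2.2e-08). Flna, the filamin that crosslinks actin, rose by 2.46, Zyx by 2.14, Tpm4 by 1.92, Mylk, the kinase of the myosin light chain, by 1.91, and Vcl by 1.79. Srf, the factor that drives many of these genes, rose by 1.22. The exception was Myl9, a myosin light chain, which fell from 3.54, 3.41 and 2.34 CPM to 1.17, 0.618 and 0.258 CPM (log2 fold change -1.31). Against the MITF KO, 15 of the 30 genes were higher and 2 lower in the TKO, and against the MITF/TFEB DKO 1 was higher and none lower.

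Matrix genes, integrins and proteases rose as well, with 21 of 48 upregulated and 2 downregulated (4.17%), where 8.28% and 6.41% of all genes were. At an adjusted p below 0.05, 35 were higher and 5 lower, where 28.3% and 27.9% of all genes were, and the median was 0.91. Fn1, the fibronectin gene, had 17.1, 12.9 and 20.4 CPM in the parental cells and 273, 291.5 and 295 CPM in the TKO (log2 fold change 4.04, SE 0.20, adjusted p = 4.6e-14). Ccn1, a matrix protein and known target of YAP, went from 5.0, 3.18 and 2.83 CPM to 37.4, 48.8 and 52 CPM (log2 fold change 3.35), and Ccn2 rose by 2.85 with wider spread in the TKO (14.1, 21.1 and 24.5 CPM). Cdh2, the neural cadherin, had 29.3, 29.5 and 29.8 CPM against 90.0, 89.6 and 92.5 CPM (log2 fold change 1.59, adjusted p = 4.4e-12), and Vim, the intermediate filament protein vimentin, rose by 1.08. Col6a3 rose by 3.42, Tgfb3 by 2.74 and Tgfb2 by 2.24. Itgb3, the integrin beta-3 gene, fell from 28.6, 32.6 and 28.5 CPM to 2.73, 1.33 and 2.58 CPM (log2 fold change -3.29, adjusted p = 2.4e-12), and the basement membrane gene Nid1 fell by 1.04. Against the MITF/TFEB DKO, 4 of the 48 genes were lower in the TKO and none higher.

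Genes of the neural crest, the embryonic source of melanocytes, moved in both directions. Of 25 measured, 8 were upregulated (32%) and 2 downregulated (8%), where 8.28% and 6.41% of all genes were, and the median was 0.26. Sox10 had 708, 762 and 723 CPM against 1036, 994 and 988 CPM (log2 fold change 0.46, adjusted p = 3.1e-04), and Pax3 had 241, 233 and 242 CPM against 231, 238 and 238 CPM, which overlap (adjusted p = 0.85). The markers of the labelled melanoma cells, Sox10, Pax3, Tyrp1 and Dct, were thus present in both lines, and Tyr, Pmel and Mlana were lower in the TKO. Gfap, a filament protein of glia, rose from 2.55, 2.96 and 3.19 CPM to 33.8, 29.9 and 29 CPM (log2 fold change 3.03, adjusted p = 4.3e-11). Nes, which encodes nestin, a filament protein of neural progenitors, had 71.1, 68.8 and 72.4 CPM against 322.5, 340.4 and 326 CPM (log2 fold change 2.20, adjusted p = 8.1e-13), and Tcf4 rose by 1.73. Ngfr, the low-affinity neurotrophin receptor, fell from 14.2, 13.4 and 12.8 CPM to 0.328, 0.048 and 0.731 CPM (log2 fold change -3.43, adjusted p = 1.5e-12). Met, the receptor of hepatocyte growth factor, had 212, 206 and 191.5 CPM against 27.2, 22.5 and 24.5 CPM (log2 fold change -2.99, adjusted p = 1.5e-14). Axl, a receptor tyrosine kinase, stood at 0.19 (adjusted p = 0.19), which is 1.38 above the MITF KO (adjusted p = 4.4e-09) and at -0.86 against the MITF/TFEB DKO (adjusted p = 2.5e-05).

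Some other factors that bind E-boxes, or their partners, changed too. Of 27 measured, 5 were upregulated (18.5%) and 3 downregulated (11.1%), where 8.28% and 6.41% of all genes were (median -0.14). At an adjusted p below 0.05, 6 were higher and 10 lower, where 28.3% and 27.9% of all genes were. Id2, an inhibitor of helix-loop-helix factors, had 459.5, 502 and 452 CPM against 66.4, 60.9 and 66 CPM (log2 fold change -2.85, SE 0.12, adjusted p = 1.5e-15), while its relative Id3 rose by 1.46 with a wide spread (7.51, 10.4 and 19.4 CPM against 28.4, 29.9 and 44.3 CPM, adjusted p = 0.0023). Bhlhe41, a repressor of the clock, fell by 2.44 (150 ± 3.79 CPM against 26.6 ± 1.39 CPM, SD, n = 3, limma adjusted p = 1.7e-15). Myc fell from 6.21, 6.68 and 6.61 CPM to 1.49, 2.52 and 1.63 CPM (log2 fold change -1.40, adjusted p = 6.7e-05), and Mxd4, an antagonist of MYC, rose by 1.76 (adjusted p = 5.6e-10). Max was lower, at -0.58 and Usf1, with 0.647, 1.14 and 2.11 CPM against 1.46, 2.47 and 1.89 CPM, did not pass (adjusted p = 0.36).

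Several galectins fell and most S100 genes rose. Of 17 measured genes in this list of galectins, S100 and annexin genes, 9 were upregulated and 4 downregulated. All 4 that fell are galectins: beside Lgals3, Lgals9 had 162, 168 and 160 CPM against 5.50, 5.56 and 5.03 CPM (log2 fold change -4.69, adjusted p = 9.3e-22), and Lgals8 (-1.33) and Lgals7 (-1.52) fell less. Lgals9 stood at -5.21 in the MITF KO also and was at -3.43 against the MITF/TFEB DKO (adjusted p = 3.4e-19), whereas Lgals3 was at -7.97 against the MITF KO (adjusted p = 2.5e-24) and differed from the MITF/TFEB DKO by -0.23 (adjusted p = 0.20). Lgals1 stood at 0.26 (adjusted p = 0.0499). S100a4, a calcium-binding protein of motile cells, had 36.7, 37.5 and 39.1 CPM against 476, 456 and 457 CPM (log2 fold change 3.58, SE 0.092, adjusted p = 2.2e-19). S100a6 rose by 2.66, S100a16 by 2.51, S100a11 by 2.15, S100b by 2.11 and S100a13 by 2.08. Relative to parental cells, S100a4 stood at 3.62 in the MITF/TFEB DKO and at 1.85 in the TFEB KO. In the same order, S100a6 stood at 2.43 and 1.32, S100a11 at 2.08 and 0.33 and S100a16 at 1.75 and 0.21. The TKO was 0.76 above the MITF/TFEB DKO for S100a16 (limma adjusted p = 4.7e-06) and at -0.04 for S100a4 (0.86). S100a4, S100a6, S100a11 and S100a16 lie close together on chromosome 3, with neighbour medians of 0.20 to 0.21.

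Metabolic genes changed in part. Ppargc1a, the coactivator PGC-1alpha that drives mitochondrial genes, had 152, 149 and 128 CPM in the parental cells and 46.1, 46.4 and 48.2 CPM in the TKO (log2 fold change -1.58, adjusted p = 1.7e-10), and was at -2.80 against the MITF KO (adjusted p = 1.3e-14). Of the 79 genes of the respiratory chain with it, 1 was upregulated (1.27%) and 2 were downregulated (2.53%), where 8.28% and 6.41% of all genes were (median -0.08). The other genes called were Ndufs8 (-1.02) and Sdhc (1.25). Their neighbour medians were -0.35 and 0.58. Hk2, the hexokinase that starts glycolysis in many tumours, had 259.5, 265 and 247 CPM against 83.6, 79.9 and 78.9 CPM (log2 fold change -1.66, adjusted p = 2.8e-11), and Slc16a3, the lactate exporter, fell by 1.52 and Pgam1 by 1.19. Pgam1 had a neighbour median of -0.78 on chromosome 19. Of 38 genes of glycolysis and hypoxia, 4 were downregulated (10.5%) and 2 upregulated (5.26%), where 6.41% and 8.28% of all genes were (median -0.12). Ldha (adjusted p = 0.83) and Slc2a1 (adjusted p = 0.058) did not pass. Of 36 genes of sterol and fatty acid synthesis, 7 were upregulated and 1 downregulated, with 22 higher and 6 lower at an adjusted p below 0.05 and a median of 0.54. Hsd17b7 had 12, 8.41 and 10.2 CPM against 61.1, 63.4 and 60.2 CPM (log2 fold change 2.49, neighbour median 0.62), and Fdps had 174, 183 and 170 CPM against 434, 406 and 430.1 CPM (log2 fold change 1.27, adjusted p = 3.3e-13). Scd1, which makes monounsaturated fatty acids, fell instead, from 23.8, 24.7 and 24.7 CPM to 7.07, 8.75 and 8.99 CPM (log2 fold change -1.46, adjusted p = 2.8e-09), beside a neighbour median of -0.80 on chromosome 19.

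The stress response of ATF4, a factor that induces genes of amino acid supply, was lower. Of 31 genes, 5 were downregulated (16.1%) and none upregulated, where 6.41% and 8.28% of all genes were. At an adjusted p below 0.05, 20 were lower and 2 higher, where 27.9% and 28.3% of all genes were, and the median was -0.65. Atf4 itself had 1050.2, 1156 and 1010.2 CPM against 489, 458 and 444 CPM (log2 fold change -1.21, adjusted p = 7.5e-09). Trib3, a pseudokinase induced by ATF4, went from 73.3, 66.6 and 58.4 CPM to 13.8, 13.8 and 11.1 CPM (log2 fold change -2.27, adjusted p = 2.5e-13), Chac1, which degrades glutathione, fell by 1.69, and Ddit3, the factor CHOP, by 1.52. These 3 genes were at -3.37, -2.91 and -2.55 against the MITF KO, with adjusted p-values of 4.0e-16, 3.6e-16 and 7.7e-15. In the MITF/TFEB DKO the list was also lower, with a median of -0.64 relative to parental cells. Atf4 stood at -1.47 there, Trib3 at -1.51, Chac1 at -1.39 and Ddit3 at -0.25. Against that line, 1 of the 31 genes was lower in the TKO by 2-fold at an adjusted p below 0.05, and none was higher. Slc7a11, the cystine importer, fell by 2.95 (13.6, 12.3 and 16.9 CPM against 0.401, 1.19 and 1.46 CPM). Of 41 genes of glutathione and NRF2, 6 were downregulated (14.6%) and 2 upregulated (4.88%), where 6.41% and 8.28% of all genes were (median -0.39). Fth1, the heavy chain of ferritin, had 2216, 2358 and 2500 CPM against 469, 461 and 466 CPM (log2 fold change -2.34, adjusted p = 1.3e-15), with a neighbour median of -0.55 on chromosome 19, and Prdx6 rose by 1.59, with a neighbour median of 0.70 on chromosome 1. Nfe2l2, which encodes NRF2, was lower, at -0.62 (adjusted p = 1.6e-05), and Keap1 stood at -0.03 (adjusted p = 0.81).

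Genes of the cell cycle moved unevenly. Of 52 genes of DNA replication, 6 were downregulated (11.5%) and none upregulated, where 6.41% and 8.28% of all genes were. At an adjusted p below 0.05, 24 were lower and 3 higher, where 27.9% and 28.3% of all genes were (median -0.26). Mcm10 had 79.5, 82.9 and 75.2 CPM against 20.9, 22.7 and 26.3 CPM (log2 fold change -1.73, adjusted p = 3.4e-12), Cdt1, which licenses origins, fell by 1.17, Cdk2 by 1.11 and Rrm2 by 1.02. The neighbour medians of Cdt1, Cdk2 and Rrm2 were -0.46, 0.31 and -0.39. Of 43 genes of mitosis none was called by the 2-fold rule, and at an adjusted p below 0.05, 12 were higher and 8 lower (median 0.07). Among inhibitors and genes of cell cycle entry, 7 of 27 were upregulated and none downregulated (median 0.58). Cdkn1c, which encodes the inhibitor p57, rose from 3.84, 2.59 and 3.15 CPM to 18.8, 24.1 and 23 CPM (log2 fold change 2.46, SE 0.21, adjusted p = 8.9e-10), Btg2 rose by 1.91 and Gadd45b by 1.57. Btg2 had a neighbour median of 0.59 on chromosome 1. Ccnd1, the cyclin D1 gene, was lower, at -0.82 (417, 409 and 461 CPM against 230.4, 242 and 256 CPM, adjusted p = 1.6e-07), and Cdkn1a stood at 0.18 (adjusted p = 0.13).

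The loss of all 3 factors was then compared with the sum of the changes in the 3 single KOs, on the log2 scale and in the same fit. In 903 genes (7.52%) the TKO lay above the sum and in 666 (5.55%) below it, by at least 1 and at an adjusted p below 0.05. Of the upregulated genes, 422 lay above the sum, and of the downregulated genes, 284 lay below it. In 732 upregulated and 487 downregulated genes, no single KO reached 2-fold, and of these 319 lay above and 233 below the sum. The share of all genes in which no single KO reached 2-fold was not counted. The sum and the calls use the same TKO and parental libraries, so that these counts follow in part from how the genes were chosen. The medians that come next share the parental libraries with the calls. Upregulated genes had median changes of 0.54 without MITF, 0 without TFE3, 0.03 without TFEB and 1.38 without both MITF and TFEB, and downregulated genes of -0.56, -0.15, -0.07 and -1.15. The genes furthest below the sum were Lgals3 (-6.81), Car14 (-6.69, SE 0.24, adjusted p = 2.4e-15), Fam111a (-5.60), Eps8 (-4.87) and Nr4a3 (-4.77). Eps8, which caps actin filaments, had 339, 340 and 354 CPM in the parental cells and 6.01, 8.61 and 7.53 CPM in the TKO (log2 fold change -5.38), where the single KOs add up to -0.51. Nr4a3, a nuclear receptor, had fallen by 2.79, where the single KOs add up to 1.98. Ppargc1a lay below the sum at -3.13 (adjusted p = 1.5e-09) and Trpm1 at -4.34 (adjusted p = 1.6e-08). The melanosome list had 15 of 35 genes below the sum and 2 above it.

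The genes furthest above the sum fell into 2 kinds. Slc9b1, a sodium-proton exchanger, had 2.72, 2.14 and 1.98 CPM in the parental cells and 16.4, 14.2 and 16.6 CPM in the TKO (log2 fold change 2.36), where the single KOs add up to -3.99, and Rhox5, a homeobox gene of chromosome X, rose by 2.29, where they add up to -3.95. Ccdc8, Slfn2 and Cxcl10 were lower in the TKO than in the parental cells, but by less than the single KOs add up to. Ccdc8 had 18.4, 16.8 and 21.3 CPM in the parental cells and 0 reads in the TKO, at least 148-fold lower, and its single KOs add up to -11.1, more than the parental level allows. Such a sum below a log2 level of 0 was reached in 131 of the 903 genes, among them 37 interferon genes, and in these a part of the value above the sum is the distance from the predicted level up to 0. That distance is the whole value for Ccdc8, which had 0 reads in the TKO. For Slc9b1 the predicted log2 level was -2.28, for Rhox5 -0.69 and for Cxcl10 -1.25, against values above the sum of 6.34, 6.24 and 6.02, so that most of the value lay above the floor. The interferon list had 64 of 70 genes above the sum and none below it.

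**Figure D5:**
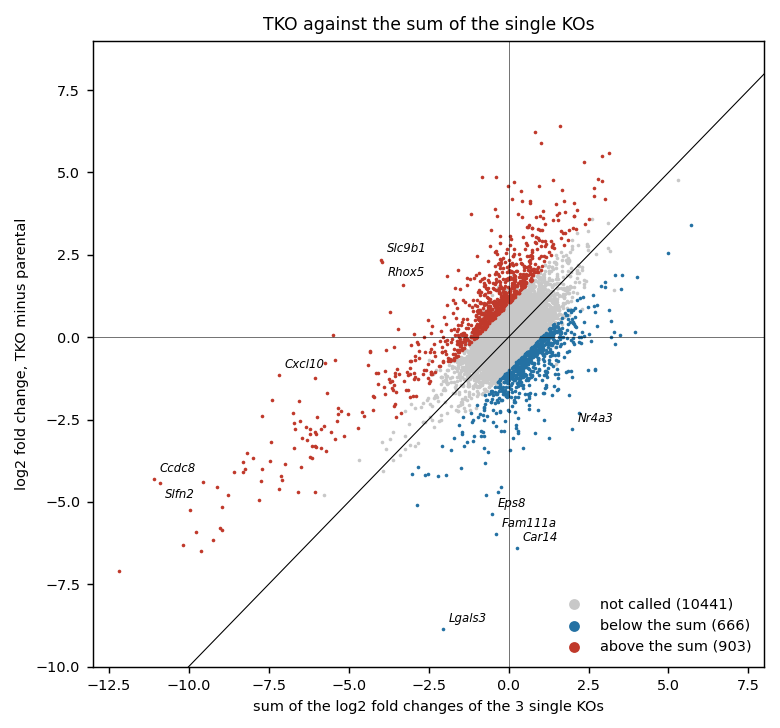
Log2 fold change of each gene in the TKO (y axis) against the sum of its log2 fold changes in the 3 single KOs (x axis), both against the parental cells, with the line of equality, the 903 genes above the sum in red and the 666 below it in blue. Lgals3, Car14, Fam111a and Eps8 lie near the middle of the x axis and far down, and Ccdc8 and Slfn2 far to the left.

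Values that moved with the comparison across the genome were read as well. Genes on chromosome 1 had a median of 0.51 (log2, 106 upregulated and 21 downregulated among 538 with a mean of at least 5 CPM) and genes on chromosome 19 a median of -0.58 (7 and 68 among 323). Stretches of 100 neighbouring genes with a median of at least 0.3 in size held 21.8% of genes with a position, 30.6% of upregulated and 28.3% of downregulated genes. With the neighbour median subtracted, 886 genes were upregulated and 608 downregulated. The part of these shifts in the changes of single genes was not tested, and neighbour medians are given above for some of the named genes only. Markers of other cells were mostly outside the table, with 8 of 29 measured. Their summed level went from 10.7 to 16.8 CPM for fibroblast markers, from 1.10 to 4.22 CPM for leukocyte markers and from 10.5 to 0.143 CPM for endothelial markers, and the leukocyte marker Ptprc, the endothelial marker Cdh5 and the epithelial marker Epcam are not among the 12010 genes. The epithelial keratin gene Krt14 had 0 parental reads and 16.9, 16.1 and 19.3 CPM in the TKO, while Cdh1 went from 1.25, 1.41 and 0.899 CPM to 0.838, 0.285 and 0.473 CPM.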

How the data were processed

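Messenger RNA was sequenced from its 3′ end (QuantSeq) in 8 lines of B16-F10 cells with 3 libraries each. The authors trimmed reads with Trim Galore 0.6.5 and cutadapt 2.10, aligned them with STAR 2.7.8a to mm39 and normalized them with edgeR, per the submitters' processing notes and the paper, and deposited a signal that is never negative, CPM scaled by TMM factors (0.925 to 1.07). The counting tool, annotation and gene filter are not given in the sources used here. The table had been taken for plain CPM in the plan of the tests, which was kept. In it 100% of values were whole multiples of 1 read (within 0.1 read), which gave back the reads. limma 3.58.1 (R 4.3.3) was fitted on log2(CPM + 1) over all 24 libraries, with a variance trend and 16 residual degrees of freedom, and p-values were adjusted by the Benjamini-Hochberg method over 12010 genes. As an alternative, those reads were tested by quasi-likelihood in edgeR 4.0.16. Scripts were tested on simulated data. Positions come from GENCODE vM39 (11659 genes matched by symbol), promoters from RefSeq (GRCm38.p6). The factor genes were named, as were the 10 largest rises and falls with libraries that do not overlap, the first 4 and up to 4 called genes a direction of each list, and the 5 genes furthest above and below the sum. A predicted gene among the rises was passed over. Further members of lists, genes with the motif TCATGTGA and markers were named after their values were seen. The comparison, the gene lists and the named genes were chosen with earlier results of these data known, so no test was made over a list. Libraries of a line differed by more than sampling noise (chi-square per degree of freedom of at least 4.61). Some genes that the rule names are not reported here. Every column of the table belonged to a sample of the series.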

Additional observations from a re-analysis of the deposited data

Results flagged for a closer look

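The difference between the TKO and the sum of the single KOs was tested by a contrast in limma over all 24 libraries. It is given here because many genes departed from the sum: 903 lay above it and 666 below it at an adjusted p below 0.05 and a size of at least 1. In 131 of the 903 genes the sum predicted a log2 level below 0. The lines are single clones, so that clone and genotype cannot be told apart in these differences.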

How the results depend on the processing

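The counts of genes moved by more than 1.5 times under 1 alternative: with a pseudocount of 5 CPM, 557 genes were upregulated and 441 downregulated, and 546 lay above and 351 below the sum of the single KOs. Otherwise the counts of up- and downregulated genes ran from 683 and 589 (genes with a mean of at least 5 CPM) to 1345 and 1088 (edgeR on the recovered reads). Leaving out 1 library gave 1000 to 1043 upregulated and 758 to 798 downregulated genes, and 828 to 955 above and 583 to 698 below the sum. The replicate numbers did not pair the samples (correlation of the deviations of same-numbered libraries 0.16, -0.10 and 0.30), and a replicate block gave 995 up- and 770 downregulated genes, with 903 above and 670 below the sum. Quantile normalization shifted the median of all genes by -0.04 and gave 931 and 829 genes. Among the named genes, Dct had a log2 fold change of 0.000 with quantile normalization and Cdk4 of -0.090 with the neighbour median subtracted, in place of -0.44 and 0.22. Quantile normalization gives a gene of the same rank in every library the same value. The 0.000 of Dct therefore cannot show whether its fall depends on scaling. Of the other values of named genes under the alternatives, 2517 kept their direction and call, 29 lost the call and 22 gained it. Depth limits the reading of genes with at most 3 reads per library, for which no fitted fold change is given as a bound.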

Other observations

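A small group of RNAs set the TKO apart from the line without MITF and TFEB in the upward direction, in which 37 genes passed. The largest differences were those of Rny3 and Rny1, small cytoplasmic Y RNAs that bind the protein RO60. Rny3 had 8.97, 10.9 and 9.48 CPM in the parental cells and 276, 239 and 228 CPM in the TKO, 3.67 (log2) above the MITF/TFEB DKO (adjusted p = 2.6e-11). Rny1 had 4.36, 5.18 and 3.87 CPM in the parental cells and 83.2, 83.4 and 69.1 CPM in the TKO, 2.89 above the MITF/TFEB DKO (adjusted p = 1.6e-11). Both are transcribed by RNA polymerase III and lack a poly(A) tail, and why libraries primed on poly(A) held them was not tested. Among protein-coding genes, Lrp8, a receptor of reelin, had a mean of 24.1 CPM in parental cells, fell to 4.38 CPM without MITF and TFEB and stood at 14.3 CPM in the TKO, and Cp, which encodes the copper carrier ceruloplasmin, at 40.7, 222 and 553 CPM in the same order. Apod, which encodes a lipid carrier, went the other way, with 3.53 CPM in parental cells, 108 CPM without MITF and TFEB and 6.77 CPM in the TKO. These genes were chosen after their values were seen.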
